A study of Mus musculus with 8 samples.

Results

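The transcripts of 10 integrin subunits of blood vessels were followed in mouse forebrain microvessels at 3 ages. The genes were Itga1, Itga3, Itga4, Itga5, Itga6, Itgav, Itgb1, Itgb3, Itgb5 and Itgb8. Their probes were those whose accession mapped to the gene, and this gave 15 of the 39429 probes of the array and 10 of the 21941 genes or transcripts tested (15592 of them with a gene symbol). Microvessels came from mice at 5 days (P5) and 10 days (P10) after birth and from adults. Strain, sex, the age of the adults and any pooling of animals are not given in the labels. The preparation, by homogenisation, sedimentation and filtration, collected particles under 70 µm. There were 8 two-colour arrays, and each compared RNA from a pair of ages. A slide with 4 arrays made up each of the 2 replicates. The arrays held P5 with adult RNA, P5 with P10 RNA, and P10 with adult RNA in both dye orientations, so P5 was always labelled with Cy5.

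Integrins are receptors made of an α and a β chain that span the membrane, bind matrix proteins outside the cell and attach, through talin and kindlin, to actin inside it. The β1 chain pairs with many α chains, and the α chain sets the ligand: α1β1 binds collagens, α3β1 and α6β1 bind laminins, and α5β1 binds fibronectin. α4β1 binds fibronectin and the endothelial adhesion molecule Vcam1. The αv chain pairs with β1, β3, β5 or β8, and αvβ8 can release active TGF-β from its latent complex. In mice, loss of αv or β8 from the cells around brain vessels leads to haemorrhage in the developing brain.

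The 10 transcripts fell into 3 courses. At the probes that stood for them, Itgb1, Itga5 and Itga4 were highest at P10 and lower both before and after. The call of Itgb1 in P10 against adult was not met at its other probe (0.43, adjusted p = 0.291). It was also lost with the mean of both probes, with median centring and without the 2 arrays that held spots with a faulty background. Itga6 was lowest at P5 and higher at P10, and had its highest level in adults, while Itga1 and Itga3 were lower at P5 than at either later age. For Itga1 this held at the brighter probe only. Its other probe was at 0.08 in P5 against adult and -0.10 in P5 against P10, neither of them called. In the data as processed, Itgav, Itgb3, Itgb5 and Itgb8 had differences of at most 0.49 at the probe that stood for the gene. Of these only Itgb8 passed a test, in P5 against adult, where the deposited log ratios gave it -1.07. A second probe of Itgav passed in P5 against adult and in P5 against P10. With the normexp background model fitted on every spot, Itga6 and Itga1 alone kept calls in P5 against adult, Itga6 alone in P10 against adult, and none in P5 against P10. Counts at an adjusted p below 0.05 are set here beside the share of all genes called in the same direction. In P5 against adult, 1 of 10 integrins was higher, where 30.1% of all genes were, and 4 were lower, where 23% were (53.1% of all genes were called in either direction). In P10 against adult, 3 were higher, where 8.42% of all genes were, and 1 was lower, where 9.1% were (17.5% in either direction). In P5 against P10, none was higher, where 23% of all genes were, and 6 were lower, where 18.2% were (41.2% in either direction). The median log2 ratio of the 10 was -0.36 in P5 against adult, 0.16 in P10 against adult and -0.57 in P5 against P10. The medians over all genes were 0.09, 0.01 and 0.06.

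**Figure D1:**
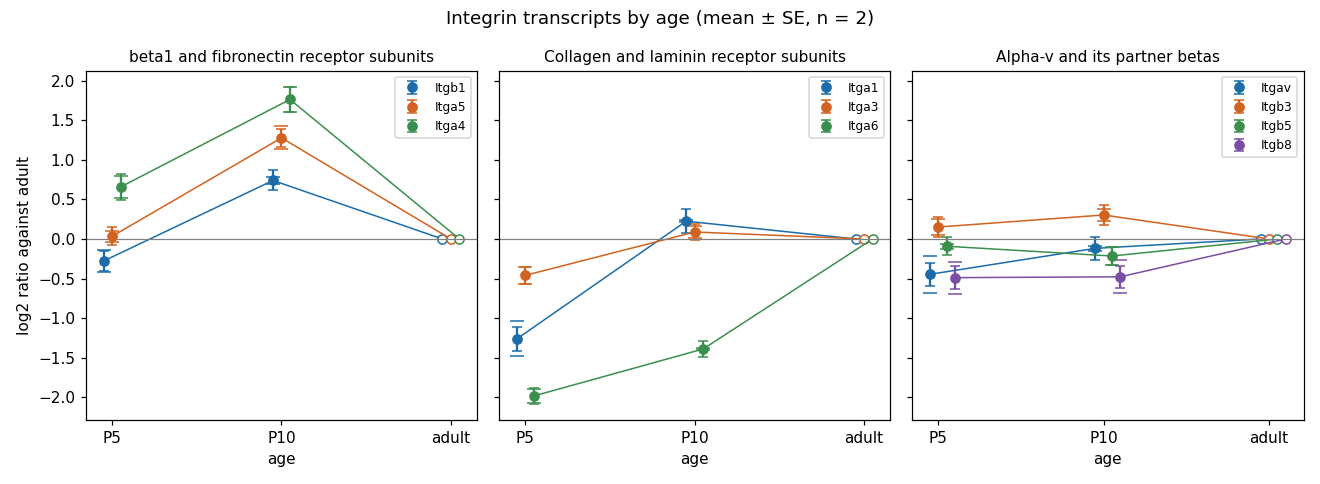
Log2 ratio against adult (y axis) at P5, P10 and adult (x axis) for the 10 integrin genes in 3 panels; filled points are means of 2 replicates, capped bars the limma SE, dashes the replicate values, and open points the adult reference at 0. Itgb1, Itga5 and Itga4 peak at P10 at 0.74, 1.28 and 1.77, and Itga6 is lowest at P5 at -1.99.

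Of the 15 probes, 14 were well above background in all 4 P5, 6 P10 and 6 adult channels, and none was saturated. The exception was the dimmer probe of Itgb3, which passed in 1 adult channel only and was left out. All 10 genes passed the filter on dim probes at every age, so none entered through 1 age alone. Over all channels, the share of non-control spots well above background was 65.2% to 73.3%. With 2 replicates per age, which the labels do not say came from separate animals, p-values measure only the spread between these samples and may reflect technical spread. Each ratio is relative to the RNA of the whole preparation, so fewer cells of a type and less RNA per cell cannot be told apart. All 15 endothelial markers were lower at P5 than in adults (median -1.69), and 7 of 15 were lower at P10 (median -0.46), or 4 with median centring, and their part in the integrin values was not tested. Of all genes, 23% were lower at P5 and 9.1% at P10.

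Promoters are shown for the 3 genes that peaked at P10 at the probe that stood for the gene. Common regulation was not tested. RefSeq promoter sequences of build GRCm38.p6 were matched for 8 of the 10 genes. The 250 bases before the start are given 5′ to 3′ on the strand of the gene, at chr8:128685404-128685653 (plus strand) for Itgb1, chr15:103366792-103367041 (minus strand) for Itga5 and chr2:79255176-79255425 (plus strand) for Itga4. Capitals mark matches to a GC box, GGGCGG on either strand.
Itgb1: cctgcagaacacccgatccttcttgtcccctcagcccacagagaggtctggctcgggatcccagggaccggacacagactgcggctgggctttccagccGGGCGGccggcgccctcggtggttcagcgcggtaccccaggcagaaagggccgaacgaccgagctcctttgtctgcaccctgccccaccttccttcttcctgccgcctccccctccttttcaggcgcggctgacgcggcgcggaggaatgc
Itga5: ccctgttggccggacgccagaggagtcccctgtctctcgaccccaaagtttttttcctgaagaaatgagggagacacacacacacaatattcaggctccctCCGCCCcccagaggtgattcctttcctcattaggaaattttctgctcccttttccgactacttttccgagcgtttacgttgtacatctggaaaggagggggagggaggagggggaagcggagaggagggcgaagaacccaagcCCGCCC
Itga4: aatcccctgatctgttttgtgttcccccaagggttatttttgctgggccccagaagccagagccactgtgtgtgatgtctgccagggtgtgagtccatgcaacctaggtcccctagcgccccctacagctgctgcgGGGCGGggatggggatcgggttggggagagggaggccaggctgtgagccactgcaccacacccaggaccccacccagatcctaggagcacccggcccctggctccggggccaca
All 3 held a GC box, Itga5 with 2 and the other two with 1 each. A GC box was found in 5 of the 8 matched genes, the others being Itga3 and Itgb5. Itga3 had 2 promoter windows, so by window the count was 6 of 9. Of 32841 promoter windows of the same length, 32.7% held a GC box. The ETS-type motif CCGGAAG was present in Itga3 only among the 8 genes and in 6.91% of windows. CCAAT was present in Itga3 and Itgb8 and in 33.9% of windows, and TATAAA in none of the 8 genes and in 12.4% of windows. All motifs were searched on both strands, and a match is only a match of letters.

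Itgb1 encodes the β1 chain shared by the collagen, laminin and fibronectin receptors. Its log2 ratio on the P5/adult arrays was -0.05 in replicate 1 and -0.60 in replicate 2. On the P10/adult arrays it was 0.54 and 0.73, and with the dyes exchanged 0.69 and 0.93. On the P5/P10 arrays it was -1.08 and -1.22. P10 thus lay above the other age on all 6 arrays that held P10 RNA. The fitted difference was 0.74 ± 0.13 (SE, n = 2) in P10 against adult, a fold of 1.67 (adjusted p = 0.023), and -1.02 ± 0.13 in P5 against P10 (adjusted p = 0.00793). P5 and adult could not be ordered (-0.28 ± 0.13, adjusted p = 0.121, 95% interval -0.61 to 0.05). The dimmer probe ran the same way at P5 against P10 (-0.81 ± 0.23, adjusted p = 0.0458 over all probes) but did not pass in P10 against adult (0.43 ± 0.23, adjusted p = 0.291). The call in P10 against adult was lost without the 2 arrays that held spots with a faulty background (0.93, adjusted p = 0.0841) and with the mean of both probes (0.58, adjusted p = 0.089). It was also lost with median centring in place of loess (0.78, adjusted p = 0.0742), and Itgb1 was then lower at P5 than in adults (-0.93, adjusted p = 0.00837).

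Itga5, the α chain of the fibronectin receptor, had its maximum at P10. Its ratios were 0.09 and -0.22 on the P5/adult arrays and 1.44 and 1.13 on the P10/adult arrays. With the dyes exchanged they were 1.43 and 1.26, and on the P5/P10 arrays -1.31 and -1.11. The P10 values stood apart from both other ages in each replicate, while the 2 replicate values of P5 against adult lay on either side of 0. P10 exceeded adult by 1.28 ± 0.11 (2.43-fold, adjusted p = 0.00506), and P5 was below P10 by nearly the same amount (-1.25 ± 0.11, adjusted p = 0.00517). P5 against adult was 0.03 ± 0.11 (adjusted p = 0.815), with a 95% interval of -0.26 to 0.33. With the deposited log ratios the P10 differences were larger, at 1.74 against adult and -1.88 in P5 against P10. With the background model fitted on every spot they were 0.91 (adjusted p = 0.232) and -1.14 (adjusted p = 0.12). The only probe of Itga5 had low signal, with adult Cy3 at 89 to 141 over backgrounds of 14 to 24. Fn1, the fibronectin gene, was at -1.47 ± 0.10 in P5 against adult, 0.34 ± 0.10 in P10 against adult (adjusted p = 0.0828) and -1.81 ± 0.10 in P5 against P10.

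Itga4, whose product binds Vcam1 and fibronectin, was the 1 integrin of the 10 called higher at P5 than in adults. Its ratios were 0.69 and 0.99 on the P5/adult arrays, 2.23 and 1.81 on the P10/adult arrays and 1.71 and 1.40 with the dyes exchanged. On the P5/P10 arrays they were -1.05 and -0.61. At this probe P10 was the higher age on all 6 arrays that held it, and P5 was above adult on both arrays that compared them, each with P5 in Cy5. The fitted difference was 1.77 ± 0.16 in P10 against adult (3.40-fold, adjusted p = 0.00543), 0.66 ± 0.16 in P5 against adult (1.58-fold, adjusted p = 0.0242) and -1.11 ± 0.16 in P5 against P10 (adjusted p = 0.011). Its dimmer probe gave smaller P10 differences in the same direction, 0.61 ± 0.11 against adult (adjusted p = 0.0273) and -0.48 ± 0.11 in P5 against P10 (adjusted p = 0.0275). This dimmer probe had adult Cy3 signals of only 49.5 to 78 over backgrounds of 16 to 24. For P5 against adult it gave 0.28 and -0.01 in the 2 replicates (0.13 ± 0.11, adjusted p = 0.371). The higher level at P5 thus rests on 1 of 2 probes, the other having low signal. The P5 call did not hold with median centring (0.11, adjusted p = 0.755), with the deposited log ratios (0.71, adjusted p = 0.0564) or without the 2 arrays (0.50, adjusted p = 0.114). Vcam1, its endothelial ligand, was at -0.70 ± 0.11 in P5 against adult, 0.39 ± 0.11 in P10 against adult (adjusted p = 0.0803) and -1.09 ± 0.11 in P5 against P10.

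**Figure D2:**
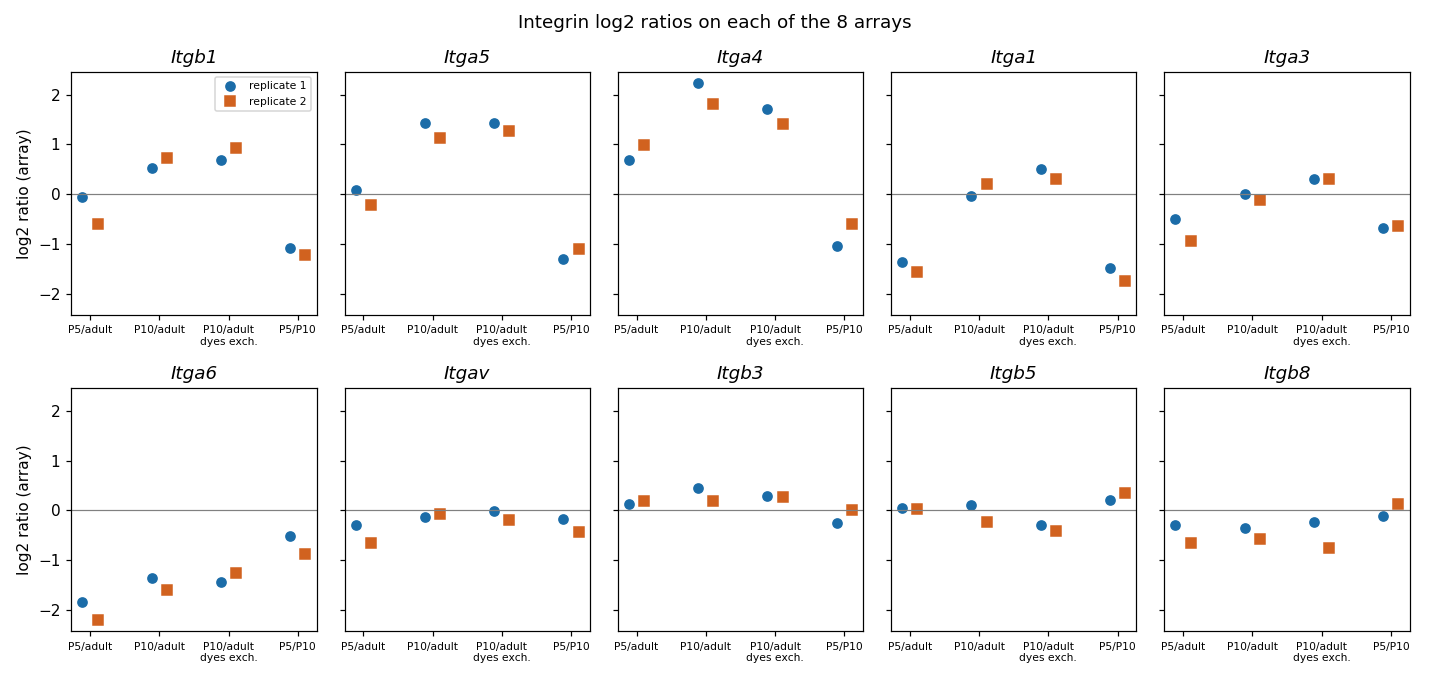
Log2 ratio (y axis) of the 10 integrin genes on each of the 8 arrays, grouped by the pair of ages on the array (x axis) with the dye-exchanged arrays turned to P10 over adult; circles are replicate 1 and squares replicate 2. All P10/adult points of Itga4 and Itga5 lie above 1, and all points of Itga6 lie below 0.

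Itga6, the laminin receptor chain abundant on brain endothelium, had the largest difference of the 10 in P5 against adult. Its ratios were -1.83 and -2.20 on the P5/adult arrays, -1.35 and -1.59 on the P10/adult arrays, and -1.44 and -1.26 with the dyes exchanged. The P5/P10 arrays gave -0.50 and -0.87. The younger age was lower on all 8 arrays. Fitted differences were -1.99 ± 0.10 in P5 against adult (3.96-fold, adjusted p = 0.000615), -1.39 ± 0.10 in P10 against adult (2.62-fold, adjusted p = 0.00337) and -0.59 ± 0.10 in P5 against P10 (adjusted p = 0.0145). At P5 the value was near the endothelial marker median of -1.69. At P10 it lay below that median of -0.46, although 4 of the 15 markers (Flt1, Ly6a, Ly6c1 and Emcn, at -2.42 to -1.64) were lower still. Among laminin chains, Lama5 was at -1.52 ± 0.17 in P5 against adult and -0.40 ± 0.17 in P10 against adult (adjusted p = 0.194), and Lama4 at 0.54 ± 0.12 and 1.43 ± 0.12.

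Itga3, a further laminin receptor chain, was lower at P5. The P5/adult arrays gave -0.49 and -0.93 and the P5/P10 arrays -0.67 and -0.64. The P10/adult arrays gave 0.01 and -0.12, and 0.31 and 0.30 with the dyes exchanged. P5 was below the other age on all 4 arrays that held it, and P10 and adult did not separate. P5 was in Cy5 on all 4, and the 2 dye orientations of P10/adult differed by 0.31 and 0.41. With the dye term fitted, P5 against adult was -0.35 and -0.57 in the 2 replicates. P5 was lower than adult by -0.46 ± 0.11 on the log2 scale (adjusted p = 0.02) and lower than P10 by -0.55 ± 0.11 (adjusted p = 0.0186). P10 against adult was 0.09 ± 0.11 (adjusted p = 0.657, 95% interval -0.19 to 0.36). With the deposited log ratios the P5 differences were larger, at -0.82 against adult (adjusted p = 0.0133) and -0.89 against P10 (adjusted p = 0.02).

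Itga1, the α chain of a collagen receptor of endothelial and mural cells, gave results that differed between its probes. At the brighter probe the ratios were -1.36 and -1.56 on the P5/adult arrays and -1.47 and -1.74 on the P5/P10 arrays. They were -0.04 and 0.21 on the P10/adult arrays and 0.51 and 0.30 with the dyes exchanged. P5 was lower on all 4 of its arrays, by -1.26 ± 0.15 against adult (2.40-fold, adjusted p = 0.00344) and -1.49 ± 0.15 against P10 (adjusted p = 0.00586). At the other probe P5 against adult was -0.50 in replicate 1 and 0.66 in replicate 2, and neither P5 comparison passed (0.08 ± 0.28 against adult, adjusted p = 0.819, and -0.10 ± 0.28 against P10, adjusted p = 0.783). The fall of Itga1 at P5 therefore rests on 1 of 2 probes of the same accession. P10 against adult did not pass at either probe (0.23 ± 0.15 and 0.18 ± 0.28). Col4a1, a collagen of the basement membrane, was at 0.46 ± 0.16 in P5 against adult (adjusted p = 0.061) and 1.93 ± 0.16 in P10 against adult.

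**Figure D3:**
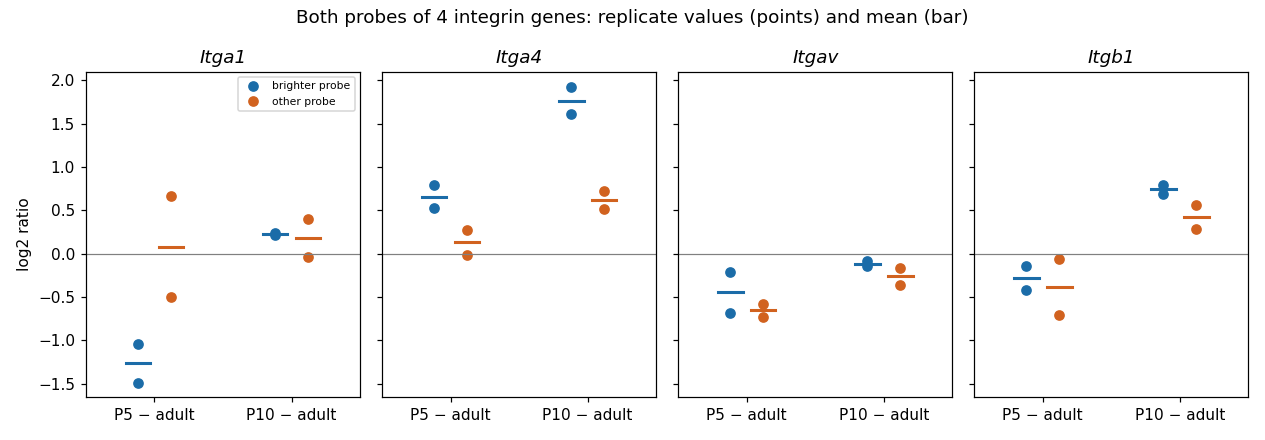
Log2 ratio against adult (y axis) at P5 and P10 (x axis) for both kept probes of Itga1, Itga4, Itgav and Itgb1; points are the 2 replicates and bars their mean. The probes of Itga1 part at P5 (-1.26 and 0.08), and those of Itga4 at P10 (1.77 and 0.61).

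Itgav, the chain shared by the vitronectin-type receptors, gave small differences between ages, and its P5 result depended on the probe and the setting. The ratios were -0.30 and -0.64 on the P5/adult arrays and -0.14 and -0.07 on the P10/adult arrays. They were -0.02 and -0.20 with the dyes exchanged, and -0.16 and -0.44 on the P5/P10 arrays. All 8 arrays had the younger age lower, by small amounts. P5 against adult just missed the threshold at the brighter probe (-0.45 ± 0.15, adjusted p = 0.0545, 95% interval -0.83 to -0.07) and passed at the other (-0.65 ± 0.10, adjusted p = 0.00677 over all probes). It also passed without a dye term (-0.44, adjusted p = 0.031), with the mean of both probes (-0.55, adjusted p = 0.0146), with median centring (-0.67, adjusted p = 0.0267) and with the deposited log ratios (-0.68, adjusted p = 0.0395). P10 against adult was -0.12 ± 0.15 (95% interval -0.50 to 0.26) and P5 against P10 was -0.33 ± 0.15 (95% interval -0.71 to 0.05), while the other probe passed there (-0.39 ± 0.10, adjusted p = 0.0375 over all probes). Vtn, the vitronectin gene and a pericyte marker, was at -2.42 ± 0.12 in P5 against adult.

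Itgb8, the partner of αv in TGF-β activation, was lower at both young ages by similar amounts. Its ratios were -0.30 and -0.65 on the P5/adult arrays, -0.34 and -0.58 on the P10/adult arrays and -0.24 and -0.75 with the dyes exchanged. On the P5/P10 arrays they were -0.11 and 0.13. Adult was highest on all 6 arrays that held it, and replicate 2 gave the larger differences. P5 against adult passed at -0.49 ± 0.14 (1.40-fold, adjusted p = 0.0384). P10 against adult had nearly the same size (-0.48 ± 0.14) and did not pass (adjusted p = 0.0853), and P5 against P10 was -0.01 ± 0.14 (95% interval -0.38 to 0.36). The P5 call was lost with median centring (-0.30, adjusted p = 0.248) and without the 2 arrays (-0.44, adjusted p = 0.12). With the deposited log ratios the differences were larger, at -1.07 for P5 (adjusted p = 0.0279) and -0.98 for P10 against adult (adjusted p = 0.0815). The signal of this probe was low, with Cy3 at 62 to 131.5 over backgrounds of 15 to 25.

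Itgb3 and Itgb5, the other partners of αv measured here, passed in no comparison. Itgb3, which also pairs with the αIIb chain on platelets, was at 0.14 and 0.19 on the P5/adult arrays and 0.46 and 0.20 on the P10/adult arrays. It was at 0.30 and 0.27 with the dyes exchanged and at -0.25 and 0.00 on the P5/P10 arrays. The 6 arrays with adult RNA all had adult lowest, with fitted values of 0.15 ± 0.12 for P5 (95% interval -0.16 to 0.47) and 0.30 ± 0.12 for P10 (95% interval -0.01 to 0.62, adjusted p = 0.17). Itga2b, the gene of αIIb, was lower at P5 (-0.60 ± 0.11, adjusted p = 0.0107), and of the 7 platelet and megakaryocyte markers tested, Itga2b among them, 1 was higher and 4 lower. Of all genes, 30.1% were higher and 23% lower in P5 against adult. Itgb5 was at 0.06 and 0.03 on the P5/adult arrays and 0.12 and -0.23 on the P10/adult arrays. With the dyes exchanged it was at -0.30 and -0.41, and on the P5/P10 arrays at 0.22 and 0.36. Its fitted values were -0.09 ± 0.11 for P5 (95% interval -0.39 to 0.21) and -0.22 ± 0.11 for P10 (95% interval -0.51 to 0.08). Both genes were thus bounded to less than 2-fold against adult in the data as processed.

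For the lists below, the shares of all genes called higher and lower were 30.1% and 23% in P5 against adult. They were 8.42% and 9.1% in P10 against adult and 23% and 18.2% in P5 against P10. List counts near these shares included, in P10 against adult, adhesion genes higher, ligands lower and membrane partners in both directions. In P5 against adult, the count of ligands higher also lay near the share. Of 34 tested genes of the cytoplasmic adhesion complex and its activation, 22 were lower and 2 higher in P5 against adult (median -0.59). Lims2, a PINCH adaptor (-2.92 ± 0.14), and Tns1, a tensin (-2.36 ± 0.10), were lowest, and Git2 (1.10 ± 0.22) and the actin crosslinker Flna (0.65 ± 0.12) highest. The integrin activators Tln1 (talin-1, -0.69 ± 0.09) and Fermt2 (kindlin-2, -1.37 ± 0.10) were also lower. In P10 against adult, 3 were higher and 6 lower (median -0.02), with Flna (0.74 ± 0.12) and the focal adhesion protein Zyx (0.58 ± 0.10) highest and Lims2 (-1.52 ± 0.14) and Ptk2b (-1.26 ± 0.20) lowest. With median centring none was higher there and 4 were lower. In P5 against P10, 23 were lower and 1 higher (median -0.53), Lims2 (-1.40 ± 0.14) and the actin linker Vcl (vinculin, -1.34 ± 0.16) being lowest and Git2 (1.30 ± 0.22) the higher one. A second probe of Ptk2b gave 0.15 in P5 against adult, where its brighter probe was at -1.08.

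Inhibitors and trafficking regulators had 6 of 11 lower and 1 higher in P5 against adult (median -0.55). Ppm1f (-1.32 ± 0.10) and the endosomal GTPase Rab21 (-0.78 ± 0.10) were lowest, and Sharpin, an inhibitor of integrin activation, was higher (0.47 ± 0.11). At P10, compared with adult, Dab2, an endocytic adaptor of integrins, was the 1 gene higher (0.96 ± 0.10) and Ppm1f the 1 lower (-0.42 ± 0.10). These counts lay near the shares of all genes, 8.42% higher and 9.1% lower. In P5 against P10, 7 were lower and 1 higher, with Ppm1f at -0.91 ± 0.10, Swap70 at -0.83 ± 0.09 and Sharpin at 0.44 ± 0.11. Of 15 membrane partners, 6 were lower and 2 higher in P5 against adult (median -0.42). Bsg, a partner of β1 and a marker of brain endothelium, was at -2.45 ± 0.15, Cav1, the caveola coat protein, at -1.34 ± 0.24, and Cd151, the tetraspanin of laminin-binding integrins, at -1.28 ± 0.11. The matrix co-receptor Sdc1 (syndecan-1) was at 0.63 ± 0.10 in P5 against adult and 1.74 ± 0.10 in P10 against adult, and the tetraspanin Cd82 at 0.53 ± 0.13 and 0.63 ± 0.13. At P10 these were the 2 higher and Bsg (-1.09 ± 0.15) the 1 lower, and in P5 against P10 none was higher and 7 were lower, led by Sdc2 (-1.37 ± 0.12) and Bsg (-1.35 ± 0.15). With median centring, 10 partners were lower and 0 higher in P5 against adult, and 14 were lower in P5 against P10.

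Of 35 tested ligands of integrins, 24 were lower and 2 higher in P5 against P10 (median -0.94). Fbln5, an elastic fibre protein that binds integrins (-3.02 ± 0.18, and -0.82 at its other probe), and Fn1 (-1.81 ± 0.10) were lowest, and Tnc (tenascin-C, 1.10 ± 0.18) and Fgb (0.51 ± 0.12) were the higher ones. At P10, compared with adult, 16 were higher and 4 lower (median 0.43), with Col3a1 (2.88 ± 0.15) and Col1a1 (2.40 ± 0.09) highest and Spp1 (-1.56 ± 0.12) and Ccn1 (-1.47 ± 0.14) lowest. In P5 against adult, 13 were higher and 14 lower (median -0.10), with Col3a1 (1.94 ± 0.15) and Angptl4 (1.81 ± 0.20) highest and Ccn1 (-2.63 ± 0.14) and Vtn lowest. Among 14 genes of TGF-β activation and response, which αvβ8 acts upon, 8 were lower and 2 higher in P5 against adult (median -0.60). The inhibitory Smad7 (-2.40 ± 0.11) and the co-receptor Eng (-1.54 ± 0.09) were lowest, and Nrros (0.98 ± 0.14), which holds latent TGF-β on microglia and macrophages, and Ltbp3 (0.86 ± 0.15) were higher. In P10 against adult, 3 were higher, among them Nrros (1.09 ± 0.14), and 2 lower, Smad7 (-1.04 ± 0.11) and Eng (-0.63 ± 0.09). In P5 against P10, 11 were lower and none higher, with Ltbp1, which anchors latent TGF-β in matrix (-1.38 ± 0.17), and Smad7 (-1.36 ± 0.11) lowest.

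**Figure D4:**
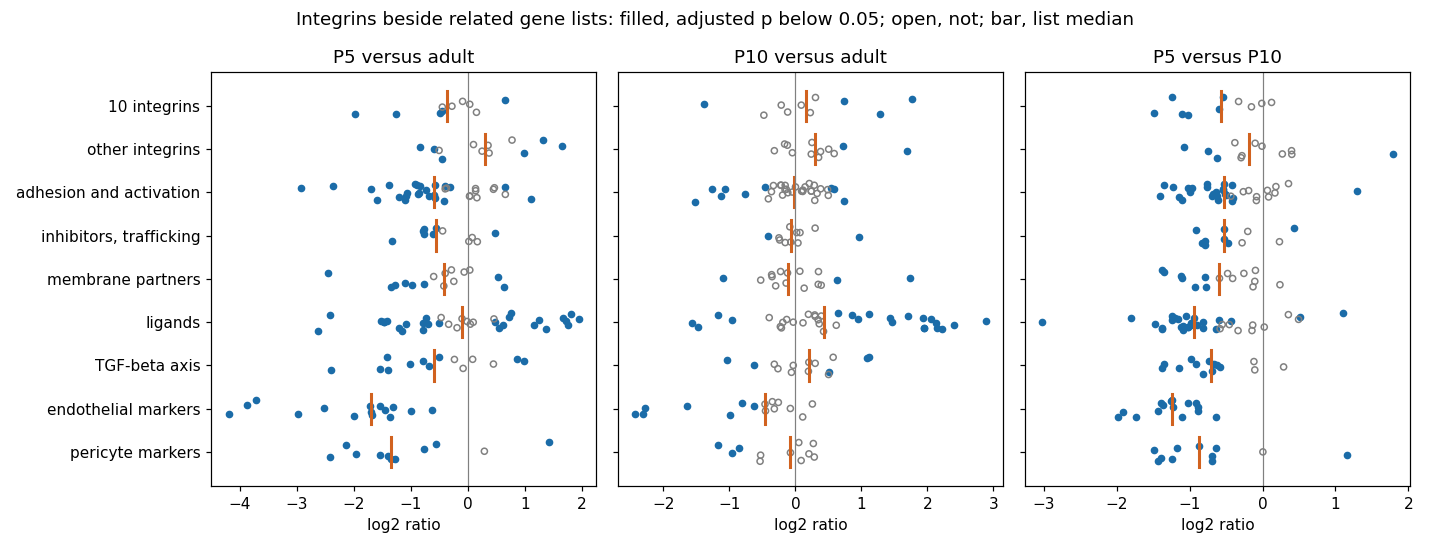
Log2 ratios (x axis) of single genes in the 10 integrins, 6 related lists and the endothelial and pericyte markers (y axis) for the 3 comparisons; filled points passed an adjusted p below 0.05, open points did not, and bars are list medians. The integrin median lies at -0.36, 0.16 and -0.57, against -1.69, -0.46 and -1.24 for endothelial markers.

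Markers of several cell types moved with age as well. Of all genes, 30.1% were called higher and 23% lower in P5 against adult. These shares were 8.42% and 9.1% in P10 against adult and 23% and 18.2% in P5 against P10. Endothelial markers had 15 of 15 lower in P5 against P10 (median -1.24, range -1.99 to -0.64). Pericyte markers had 9 of 11 lower and 1 higher in P5 against adult (median -1.35, range -2.42 to 1.43) and 3 of 11 lower in P10 against adult (median -0.08), or 0 with median centring. Smooth muscle markers had 6 of 8 lower in P5 against adult (median -2.04) and 1 of 8 in P10 against adult (median -0.08). Dividing-cell markers were higher in 9 of 9 at both young ages (medians 2.84 at P5 and 3.23 at P10), and immature neuron markers in 13 of 14 at P5 (median 1.94) and 9 of 14 at P10 (median 0.81). Fibroblast markers had 5 of 9 higher and 2 lower at P5 (median 0.86, 0.32 with median centring and 0.36 without the 2 arrays), and 4 of 9 higher at P10 (median 0.74). Astrocyte markers had 3 of 10 higher and 4 lower at P5 (median -0.43). Erythroid markers had 11 of 12 higher at P5 (median 3.57) and 6 of 12 at P10 (median 1.46). Perivascular macrophage markers had 1 of 6 higher and 3 lower at P5 (median -0.41), and 2 higher and 1 lower at P10 (median 0.42). The part of these shifts in the integrin values was not tested. At the probes that stood for them, the 3 integrins with a P10 peak rose from P5 to P10 by 1.02 to 1.25. The other probes of Itga4 and Itgb1 gave -0.48 and -0.81 in P5 against P10. Medians in P5 against P10 were -1.24 for endothelial markers, -0.94 for ligands, -0.86 for pericyte markers and -0.72 for perivascular macrophage markers. At P10 the 3 integrins were above adult by 0.74 to 1.77. Differences between the integrins and these lists were not tested.

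Genes with the most similar course were ranked by Euclidean distance over 4 values, P5 and P10 against adult in each replicate. Nearest to Itgb1 were Ndst3 (distance 0.15), the chemokine scavenger Ackr4 (0.18) and the transcription factor Tbx2 (0.20). Nearest to Itga4, the member highest at P5, were the centromere gene Cenpp (0.28), Sdc1 (0.30) and the replication helicase gene Mcm2 (0.32). Nearest to Itga6, the lowest, were the adaptor Grb14 (0.14), the phospholipid transfer protein gene Pltp (0.21) and Arl4d (0.23). Cenpp and Mcm2 were at 1.68 and 1.67 in P10 against adult, and Grb14 and Pltp at -1.99 and -1.93 in P5 against adult. Over 4 values drawn from 2 slides, such a ranking is a description only.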

How the data were processed

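Microvessel RNA was measured on Agilent two-colour arrays. Per the file headers, the authors deposited scanner output: spot and background medians and dye-normalized signals as linear intensity, plus a log10 ratio of Cy5 over Cy3. The headers name Feature Extraction version 10.5.1.1, and the submitters' processing notes version 12.6. Ages, dyes and replicates came from the labels. Median signals were corrected by normexp (offset 50), normalized by loess (span 0.3) within arrays and averaged per probe, in R 4.3.3 with limma 3.58.1. On 2 arrays, 4 and 7 spots lay over 100 below their recorded background in a channel. For the correction these took the median background of their array, and they were dropped afterwards. None was an integrin probe. Control and outlier spots had weight 0.

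A probe was kept if at least 1 age had it well above background in all its channels (27190, of which 81 lacked values in a replicate). Of several probes of a gene, the one with the highest mean intensity stands for it. Accessions were named through a RefSeq table of GRCm38.p6 (27427 of 39429 probes). For each slide, the 4 ratios were fitted on the P5 and P10 differences and a dye term. Age and replicate were then fitted by limma, with 2 residual degrees of freedom and 2.91 from the prior. The p-values were Benjamini-Hochberg adjusted over 21941 genes. Other probes of a gene were adjusted over all kept probes. Slide equals replicate, and ratios exist only within a slide, so the numbers pair the samples and the replicate block is part of the fit. The fit was tested on simulated data. Named genes were all 10 integrins and, per list and comparison, the 2 highest and the 2 lowest called, with ligands and partners beside an integrin. 1 gene that this rule names is not reported here. The members and lists were chosen with earlier results of these data known. The alternatives are given in the closing section.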

Additional observations from a re-analysis of the deposited data

Results flagged for a closer look

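3 integrins had opposite signs against adult at P5 and P10 in both replicates, with a called difference between P5 and P10. The log2 ratio of P5 against P10 was -1.49 ± 0.15 (adjusted p = 0.00586) for Itga1, -0.55 ± 0.11 (adjusted p = 0.0186) for Itga3 and -1.02 ± 0.13 (adjusted p = 0.00793) for Itgb1. Only Itgb1 also passed in P10 against adult. At its other probe Itga1 was at -0.10 in P5 against P10.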

How the results depend on the processing

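With the background model fitted to every spot, including those with faulty recorded backgrounds, the counts fell to 5385 genes and 2 integrins in P5 against adult and to 257 genes and 1 integrin in P10 against adult. In P5 against P10 limma then called 0 genes and 0 integrins, with 7068 genes at an unadjusted p below 0.05. Without the 2 arrays that held such spots, 3 integrins were called in P5 against adult, and the counts of genes were 1885 in P10 against adult and 5611 in P5 against P10. Median centring left 1279 genes in P10 against adult. It moved the median of all genes by -0.17 in P5 against adult and -0.18 in P5 against P10, and the split of higher and lower calls from 6599 and 5049 to 5019 and 5752 in the first and from 5043 and 3994 to 3771 and 5691 in the second. With no replicate block, and the arrays as independent, P10 against adult had 10097 genes and 8 integrins, and with the slide as a random block 10096 and 8. Other counts lay within 1.5 times those reported.

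Signs turned as follows, none of them in a called value. Itga5 in P5 against adult was at -0.23 with every spot fitted, -0.046 with median centring, -0.145 with the deposited log ratios and -0.054 without the 2 arrays. Itgb8 in P5 against P10 was at 0.0040 without background correction, 0.15 with median centring and 0.0063 without a dye term. Itgb3 (-0.17 in P5 against adult) and Itgb5 (-0.55 in P5 against P10) turned with median centring, Itgb5 (0.057 in P5 against adult) without a dye term and Itga3 (-0.029 in P10 against adult) with every spot fitted. The causes were not tested. Over all tested alternatives, 252 integrin values kept direction and call, 20 lost the call, 17 gained it and 11 turned. Leaving out a replicate gave values with no test. Settings for the related lists were added after seeing the data: the 10 integrins, adhesion genes and ligands kept the sign of their medians in P5 against P10 under all 4, and adhesion genes and membrane partners changed it in P10 against adult with median centring (both to 0.07).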

Other observations

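Of the 17 integrin subunits outside the 10, 12 passed the filter on dim probes. In P5 against adult, 3 were higher, where 30.1% of all genes were, and 3 lower, where 23% were, so both counts lay near those shares. Itgam, the CD11b chain of microglia and myeloid cells, was at 1.66 ± 0.36 (2.10 and 1.22 in the 2 replicates), though its 3 probes ranged from 0.00 to 1.66. Itga11, a collagen receptor chain of fibroblasts, was at 1.32 ± 0.13 at P5 and 1.70 ± 0.13 at P10, and Itgal, a leukocyte chain, at 0.98 ± 0.23 at P5. Itga8, a chain of smooth muscle and mesenchymal cells, was the lowest (-0.83 ± 0.10), followed by Itga2b (-0.60 ± 0.11) and Itgb4 (-0.46 ± 0.10). At P10, compared with adult, Itga11 and Itga9 (0.72 ± 0.16) were higher and none was lower. In P5 against P10, Itgam was higher (1.78 ± 0.36) and Itga8 (-1.07 ± 0.10), Itga7 (-0.75 ± 0.19) and Itga9 (-0.62 ± 0.16) were lower. The shares of all genes higher and lower were 8.42% and 9.1% in P10 against adult and 23% and 18.2% in P5 against P10. Microglia markers had 3 of 10 higher in P5 against adult, near the 30.1% of all genes, with medians of 0.08 and 1.33 in the 2 replicates.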
